A study of Mus musculus with 42 samples.

Results

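The 8 troponin genes of the mouse, Tnnc1, Tnnc2, Tnni1, Tnni2, Tnni3, Tnnt1, Tnnt2 and Tnnt3, were taken by their symbols from RNA-seq count tables that listed 24466 gene symbols, so that these genes made up 8 of 24466. All 8 symbols were present in every table, and all 8 passed the filter on low counts. RNA was sequenced from iPax7 cells, muscle precursors made from mouse ES cells in which doxycycline (Dox) switches on Pax7, and from satellite cells, the resident stem cells of skeletal muscle. The groups were iPax7 cells kept in 0.75 µg/ml Dox (+Dox, 3 libraries), iPax7 cells grown for 3 days without Dox (-Dox 3d, 2 libraries), and satellite cells taken from muscle of Pax7-ZsGreen reporter mice (3 libraries). The precursors had been sorted as PDGFαR+Flk-1- cells from embryoid bodies, and both iPax7 groups carry the same inducible Pax7 construct, so the Dox comparison is within 1 engineered cell source. No label says that the libraries of a group came from separate cultures or animals, so p-values measure the spread between these libraries, which may be technical. Chromatin peak sets, described further below, came from satellite cells and from iPax7 cells with Dox and 12 h, 24 h or 3 days without it. Others came from C2C12 myoblasts in fetal bovine serum: the parental line, a flag control and a line expressing flag-tagged Pax7. Myotubes in 2% horse serum were grown from iPax7 and from C2C12 cells.

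Troponin is the calcium switch of striated muscle and sits on the thin filament. Troponin C binds calcium, troponin I holds back the interaction of actin with myosin, and troponin T anchors the complex to tropomyosin. Each subunit is encoded by separate genes: Tnnc2, Tnni2 and Tnnt3 give the forms of fast skeletal fibres, Tnni1 and Tnnt1 those of slow fibres, Tnni3 and Tnnt2 those of the heart, and Tnnc1 serves both slow fibres and heart. Embryonic skeletal muscle is also known to use Tnnt2 before adult forms replace it.

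The genes lie at 5 places in the genome (NCBIM37, the mm9 build, with GENCODE M1 models). Tnni1 at chr1:137679642-137707566 is followed on the same strand by Tnnt2 at chr1:137737452-137748837. Tnni2 at chr7:149627713-149630315 is followed by Tnnt3 at chr7:149684741-149701913. Tnnt1 at chr7:4456172-4467984 and Tnni3 at chr7:4469907-4475831 lie side by side on the minus strand. Each troponin I gene thus lay near a troponin T gene, whereas Tnnc1 at chr14:32021498-32024915 and Tnnc2 at chr2:164602661-164605241 stood alone. The longest run of bases shared exactly between transcripts of 2 isoforms of a subunit was 22 bases, between Tnni1 and Tnni2.

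Promoters of the pair of troponin C genes, Tnnt1 and Tnnt2 are shown, because the shares of troponin C and T set the groups apart most and Tnnt2 is the heart isoform that rose. Each is the 250 bases before the RefSeq start (GRCm38.p6), and capitals mark E-boxes (CANNTG), the motif that MyoD-family factors bind.
Tnnc1, chr14:31208062-31208311 (+ strand): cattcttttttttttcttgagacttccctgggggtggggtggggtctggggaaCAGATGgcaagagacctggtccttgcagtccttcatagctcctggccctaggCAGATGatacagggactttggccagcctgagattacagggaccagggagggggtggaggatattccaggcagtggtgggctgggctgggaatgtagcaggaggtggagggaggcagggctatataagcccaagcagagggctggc
Tnnc2, chr2:164779735-164779984 (- strand): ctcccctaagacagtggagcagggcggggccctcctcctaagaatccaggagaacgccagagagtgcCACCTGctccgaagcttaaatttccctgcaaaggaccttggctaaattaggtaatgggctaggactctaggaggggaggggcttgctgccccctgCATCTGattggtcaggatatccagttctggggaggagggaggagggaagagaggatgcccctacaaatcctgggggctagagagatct
Tnnt1, chr7:4515976-4516225 (- strand): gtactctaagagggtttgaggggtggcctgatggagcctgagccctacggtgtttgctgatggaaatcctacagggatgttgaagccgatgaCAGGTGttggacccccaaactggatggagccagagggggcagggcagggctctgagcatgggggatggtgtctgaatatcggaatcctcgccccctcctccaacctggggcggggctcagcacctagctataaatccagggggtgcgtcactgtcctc
Tnnt2, chr1:135836084-135836333 (+ strand): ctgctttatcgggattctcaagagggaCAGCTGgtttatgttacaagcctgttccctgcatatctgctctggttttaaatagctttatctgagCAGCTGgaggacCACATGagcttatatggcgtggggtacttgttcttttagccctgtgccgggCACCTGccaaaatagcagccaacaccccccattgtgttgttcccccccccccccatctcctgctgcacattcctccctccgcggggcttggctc
Tnnc1 and Tnnc2 each held 2 E-boxes, Tnnt1 held 1 and Tnnt2 held 4. At least 1 E-box is present in 66.2% of 32851 RefSeq promoters of this length, so their presence does not set these genes apart. The MCAT element CATTCC, searched on both strands, was found once in Tnnc1 and once in Tnnt2, and 12.6% of promoters hold it. The MEF2 motif (2.92% of promoters) and the CArG box (1.47%) were not found in these windows. RefSeq promoters were matched for 6 of the 8 genes; Tnni2 and Tnnt3 had no entry.

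The libraries held 48203901 to 54674619 counts on genes for iPax7 cells and 39010958 to 43811197 for satellite cells. Reads aligned to several places were 7.11 to 7.6% of all reads in iPax7 libraries and 23.6 to 30.7% in satellite libraries. Pax7 fell after Dox withdrawal (log2 fold change -5.71 ± 0.44 SE, edgeR adjusted p = 8.08e-05), and Myog, the factor of terminal myogenic differentiation, rose (5.40 ± 0.26, edgeR adjusted p = 7.75e-06), in the direction given by the labels. The 8 myofiber markers were Ckm, Myh1, Myh4, Acta1, Mylpf, Atp2a1, Pvalb and Mb. Their summed level was 70.5 to 87.7 CPM (read counts scaled to library size) with Dox, 29200 to 30510 without it, and 371, 189 and 259 in satellite replicates 1, 2 and 3. Acta1 alone had 204, 97.9 and 149 CPM in these satellite replicates. None of the 8 was at 0 in a satellite library, against 1 to 4 at 0 in +Dox libraries. By the threshold given below, 6 of the 8 were higher and 1 lower in satellite than in +Dox cells, against 23.9% and 18.2% of all tested genes. The lower one was Mylpf, with 7.74, 2.35 and 5.16 CPM in satellite libraries and 24.4, 26.5 and 26.8 CPM with Dox. Endothelial markers summed to 175 to 268 CPM in satellite libraries and to at most 0.449 in iPax7 libraries. In bulk RNA, fewer cells of a type and less RNA per cell cannot be told apart.

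Withdrawal of Dox asks how the troponin genes respond when the precursors lose Pax7 and differentiate. Of the 8 genes, 7 rose and none fell; the exception was the cardiac Tnni3, which was not called. A gene was called at an edgeR adjusted p below 0.05 and a fold of at least 2, and over all 14836 tested genes 4.63% were called higher and 3.01% lower. The median log2 fold change was 8.07 over the troponins and -0.00492 over all tested genes.

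Among the calcium-binding subunits, Tnnc1 had 8.75, 11.5 and 17 CPM in the +Dox libraries and 4616 and 4007 CPM in the -Dox 3d libraries. Tnnc2 had 1.72, 2.94 and 1.35 CPM with Dox and 3505 and 3270 CPM without it. Both genes were low in every +Dox library and high in both -Dox 3d libraries, with no overlap. Tnnc2, the fast form, showed the largest rise of the 8 genes, 1690-fold (log2 10.72 ± 0.66 SE, edgeR adjusted p = 3.14e-05), and Tnnc1 rose 348-fold (8.44 ± 0.96, edgeR adjusted p = 0.000894).

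Among the inhibitory subunits, Tnni1 went from 8.31, 11.3 and 10.7 CPM to 3261 and 2857 CPM, and Tnni2 from 2.75, 3.93 and 6.93 CPM to 773 and 672 CPM. The slow form rose 303-fold (log2 8.24 ± 0.78 SE, edgeR adjusted p = 0.000272) and the fast form 159-fold (7.32 ± 0.50, edgeR adjusted p = 4.3e-05). Cardiac Tnni3 had 50, 23 and 8 counts with Dox and 30 and 0 counts without it. The groups overlapped, and its difference (log2 -0.58 ± 2.54 SE, edgeR adjusted p = 0.975) was smaller than its error.

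Among the tropomyosin-binding subunits, Tnnt3 went from 12.4, 14.9 and 24.6 CPM to 5249 and 4731 CPM, a 289-fold rise (log2 8.17 ± 0.43 SE, edgeR adjusted p = 1.23e-05). Tnnt2 went from 2.19, 2.66 and 2.77 CPM to 604 and 676 CPM, a 252-fold rise (7.97 ± 1.05, edgeR adjusted p = 0.00199). Tnnt1 started higher, at 28.1, 26.1 and 29.5 CPM, and reached 539 and 522 CPM. Its rise of 19-fold (4.25 ± 0.27, edgeR adjusted p = 3.15e-05) was the smallest of the 7 called. Of the 2 heart isoforms, Tnnt2 therefore rose with the skeletal forms while Tnni3 did not.

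**Figure D1:**
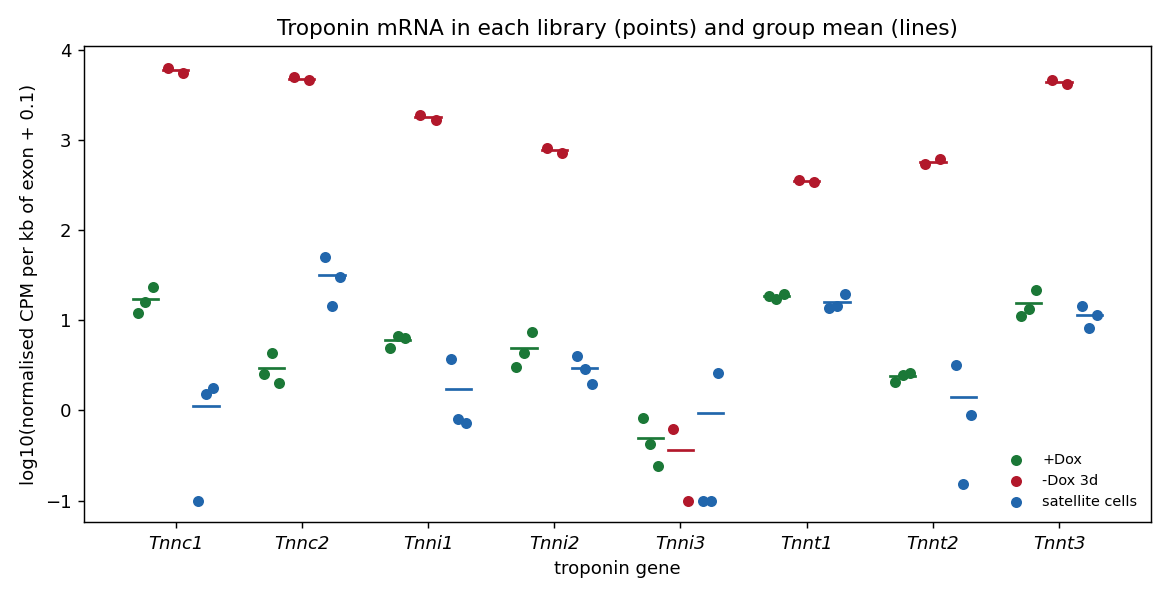
Normalised CPM per kb of exon for each troponin gene, on a log10 scale after adding 0.1, with 1 point per library and a line at the group mean (green +Dox, red -Dox 3d, blue satellite cells). The -Dox 3d points stand far above the others for every gene except Tnni3.

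Levels of different genes were compared per kb of exon. In -Dox 3d cells the order of mean levels was Tnnc1 at 5980 ± 598 CPM per kb (SD, n = 2), Tnnc2 at 4839 ± 237, Tnnt3 at 4444 ± 326, Tnni1 at 1791 ± 167, Tnni2 at 773 ± 76.1, Tnnt2 at 579 ± 46, Tnnt1 at 353 ± 8.07 and Tnni3 at 0.266 ± 0.376. Tnnc2 and Tnnt3 were next to each other with ranges that overlapped, and the other neighbours in that order did not overlap. The order rests on the exon lengths used, which for Tnnc1 were 721 bases from protein-coding models, against 1051 from all models. In +Dox cells Tnnt1 at 18.6 ± 1.14 CPM per kb (SD, n = 3), Tnnc1 at 17.2 ± 5.83 and Tnnt3 at 15.4 ± 5.75 led with overlapping ranges, followed by Tnni1 at 5.91 ± 0.93, Tnni2 at 4.85 ± 2.31, Tnnc2 at 2.86 ± 1.19, Tnnt2 at 2.30 ± 0.28 and Tnni3 at 0.397 ± 0.298. In satellite cells Tnnc2 led at 31.8 ± 18.4 CPM per kb (SD, n = 3), ahead of Tnnt1 at 15.9 ± 3.23 and Tnnt3 at 11.4 ± 3.19, and no other isoform averaged above 2.86. The satellite ranges of Tnnc2, Tnnt1 and Tnnt3 overlapped in turn.

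The comparison of satellite cells with +Dox cells sets 2 Pax7-expressing precursor populations side by side. Of the 8 troponins, Tnnc2 was higher in satellite cells, Tnnc1 and Tnni1 were lower, and 5 were not called. Over all tested genes 23.9% were called higher and 18.2% lower, so 1 of 8 higher and 2 of 8 lower lie near the background and say nothing particular about troponins. The troponin median log2 difference was -0.599, against 0.174 over all tested genes.

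Tnnc2 had 35.7, 10 and 21.1 CPM in satellite replicates 1 to 3, all above its +Dox libraries. It was 11.1-fold higher in satellite cells (log2 3.47 ± 0.48 SE, edgeR adjusted p = 0.000489). Tnnc1 had 0, 36 and 43 counts in satellite libraries, all below the 551 to 883 counts of the +Dox libraries, and was 16.7-fold lower (log2 -4.06 ± 0.81, edgeR adjusted p = 0.00338). The 2 troponin C genes thus moved in opposite directions between the precursor populations.

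Tnni1 had 222, 43 and 38 counts in satellite libraries and was 3.58-fold lower than in +Dox cells (log2 -1.84 ± 0.59 SE, edgeR adjusted p = 0.03). The call is not firm: its adjusted p was 0.0751 in an edgeR fit of these 2 groups alone, and leaving out any 1 of +Dox replicates 2 and 3 or satellite replicates 2 and 3 gave 0.0649 to 0.0834. Tnni2 (log2 -0.76 ± 0.38, edgeR adjusted p = 0.131), Tnnt1 (-0.23 ± 0.23, adjusted p = 0.44) and Tnnt3 (-0.44 ± 0.31, adjusted p = 0.281) differed by less than the threshold. Tnnt2 had 124, 2 and 31 counts in satellite libraries. Its difference was -0.80 ± 0.81 (edgeR adjusted p = 0.449), and -2.45 with an edgeR adjusted p of 0.0226 when satellite replicate 1 was left out.

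Tnni3 had 0, 0 and 98 counts in satellite replicates 1, 2 and 3, so its group mean rested on 1 library. In that library 6 of 10 cardiomyocyte markers were at 0, among them Nkx2-5, Gata4, Myh6 and Myl7, against 7 and 9 at 0 in satellite replicates 1 and 2. Of the markers seen there, Pln, which slow skeletal fibres also express, had 291 counts, Nppa had 10, and Tbx5 and Hand2 had 1 each. The summed cardiomyocyte markers were 8.45 CPM there, against 1.64 and 0.624 in satellite replicates 1 and 2 and 11.4 to 19.1 in iPax7 libraries. Their part in the Tnni3 counts was not tested.

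The 8 troponins together came to 86, 45.5 and 71 CPM in satellite replicates 1, 2 and 3, and to 65 to 93 CPM in +Dox libraries. Satellite replicate 1 was highest and replicate 2 lowest, which was also the order of the myofiber markers given above; the part of myofiber RNA in the satellite values was not tested. For Tnnc2 the counts were 1281, 353 and 756 in the same order, while Tnnt1 had 743, 756 and 1055 counts and did not share that order.

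Between -Dox 3d cells and satellite cells, 7 troponins were higher in -Dox 3d cells and none was lower, with 17.2% of all tested genes called higher and 20.4% lower. This comparison shares its samples with the other 2, so its values add no independent evidence. The difference ran from log2 4.48 ± 0.27 SE for Tnnt1 (edgeR adjusted p = 1.25e-05) to 12.5 ± 1.12 for Tnnc1 (edgeR adjusted p = 7.93e-05). Tnnc2 differed by 7.25 ± 0.58 (edgeR adjusted p = 4.93e-05), the second smallest of the 7 called. The troponin median was 8.34, against -0.231 over all tested genes.

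**Figure D2:**
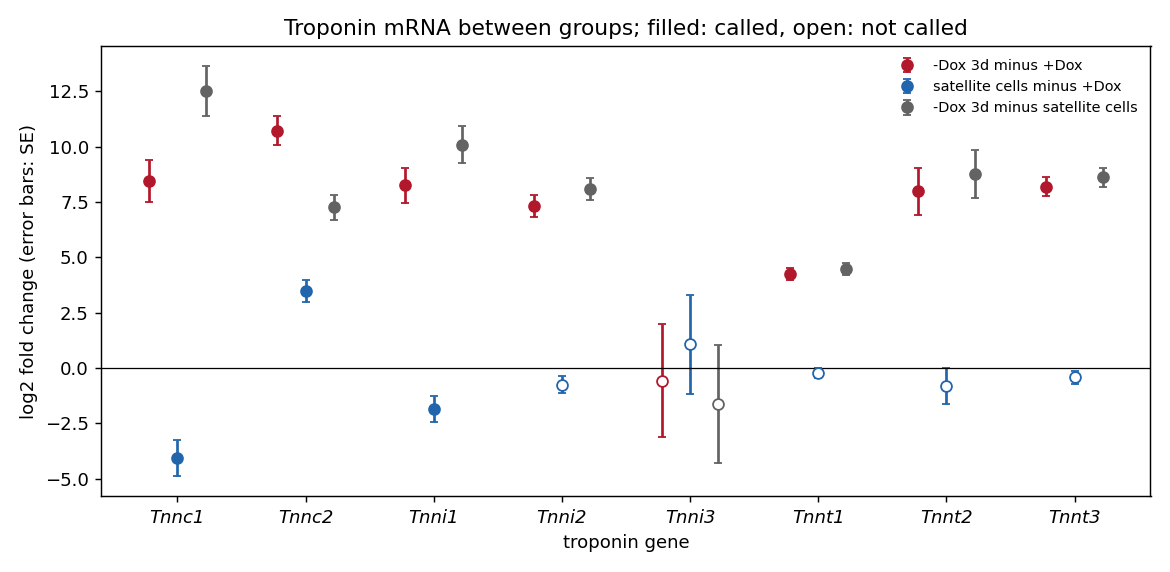
Log2 fold change of each troponin gene in the 3 comparisons, with SE bars; filled points passed the threshold and open points did not. Tnnc1 and Tnnc2 lie on opposite sides of 0 for satellite cells minus +Dox (blue), and Tnni3 has the widest bars.

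Isoform shares describe how the bulk mRNA of a subunit was divided among its isoforms, whatever the total. A share is the counts of an isoform per kb of exon, divided by the sum over the isoforms of that subunit in the same library, and 7 shares were tested with an exact permutation test over the 560 ways to assign the 8 libraries to the groups (Tnnc1 being the remainder of Tnnc2). The smallest p this test allows is 0.00357; a comparison of 2 groups cannot go below 0.10, so pairs of groups are described by their ranges.

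Troponin C showed the clearest order. The fast isoform Tnnc2 made up 16.8, 20.9 and 7.55% of troponin C mRNA in +Dox libraries, 43.9 and 45.7% in -Dox 3d libraries, and 100, 91 and 94.8% in satellite libraries. The 3 groups did not overlap (exact permutation test p = 0.00357, adjusted p = 0.025 over 7 tests). Tnnc1, the slow and cardiac form, had no count among 1281 troponin C counts in satellite replicate 1. The exact binomial 95% interval there reached up to 0.2876% of these counts. Such limits and the intervals below cover counting error only.

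Troponin T differed mainly between -Dox 3d cells and the rest. Fast Tnnt3 made up 83.8 and 81.5% of troponin T mRNA in -Dox 3d libraries, 34.8 to 49.7% in +Dox libraries and 36 to 46.2% in satellite libraries. Slow Tnnt1 made up 6.44 and 6.72% in -Dox 3d libraries, 44.6 to 59% in +Dox libraries and 43.8 to 63.5% in satellite libraries. The -Dox 3d libraries lay outside both other groups for each isoform, while +Dox and satellite libraries overlapped. The exact permutation test gave p = 0.025 for Tnnt3 and 0.0214 for Tnnt1, both with an adjusted p of 0.0583, which misses 0.05. Cardiac Tnnt2 held 9.79 and 11.8% in -Dox 3d libraries, 5.69 to 7.29% in +Dox libraries and 0.228 to 9.93% in satellite libraries (exact permutation test p = 0.186, adjusted p = 0.217).

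In troponin I the slow form led in both -Dox 3d libraries. Tnni1 made up 69.8 and 69.9% of troponin I mRNA in -Dox 3d libraries, 57.1, 59.4 and 45.3% in +Dox libraries and 47.9, 20.6 and 12.4% in satellite libraries (exact permutation test p = 0.05, adjusted p = 0.0875). The fast form Tnni2 held 30.1 and 30.2% in -Dox 3d libraries, 34.5 to 53.7% in +Dox libraries and 37.7 to 79.5% in satellite libraries (exact permutation test p = 0.146, adjusted p = 0.205). Tnni3 held 1.02 to 8.48% with Dox and at most 0.0194% without it. In satellite replicate 3 it was 49.2% of the 199 troponin I counts (exact binomial 95% interval 42.1 to 56.4%). In satellite replicates 1 and 2 it was 0, with upper limits of 1.037 and 2.715% on the same kind of interval. The exact permutation test of the Tnni3 share over all libraries gave p = 0.829 and an adjusted p of 0.829.

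The leading isoform therefore differed by subunit within the same libraries, and bulk RNA does not show whether the same cells made them. In both -Dox 3d libraries it was slow or cardiac Tnnc1 for troponin C, slow Tnni1 for troponin I and fast Tnnt3 for troponin T. With the exon lengths of all gene models, Tnnc2 held 49.93 to 51.74% in -Dox 3d libraries, so the lead of Tnnc1 there depends on the length used. In +Dox libraries Tnnc1 led troponin C in all 3, while Tnni1 and Tnnt1 led in replicates 1 and 2 and Tnni2 and Tnnt3 led in replicate 3. In satellite libraries Tnnc2 led troponin C in all 3. Troponin I was led by Tnni2 in satellite replicates 1 and 2 and by Tnni3 in replicate 3, and troponin T by Tnnt3 in replicate 1 and Tnnt1 in replicates 2 and 3. Some leaders depend on the length used. With longest-transcript lengths or raw counts, Tnni1 and Tnnt1 led in +Dox replicate 3 and in satellite replicate 1. The longest-transcript shares of Tnni1 and Tnni2 were 50.22 and 48.87% in +Dox replicate 3, and 52.9 and 47.1% in satellite replicate 1. Those of Tnnt1 and Tnnt3 were 52.4 and 42.85%, and 51.67 and 40%.

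**Figure D3:**
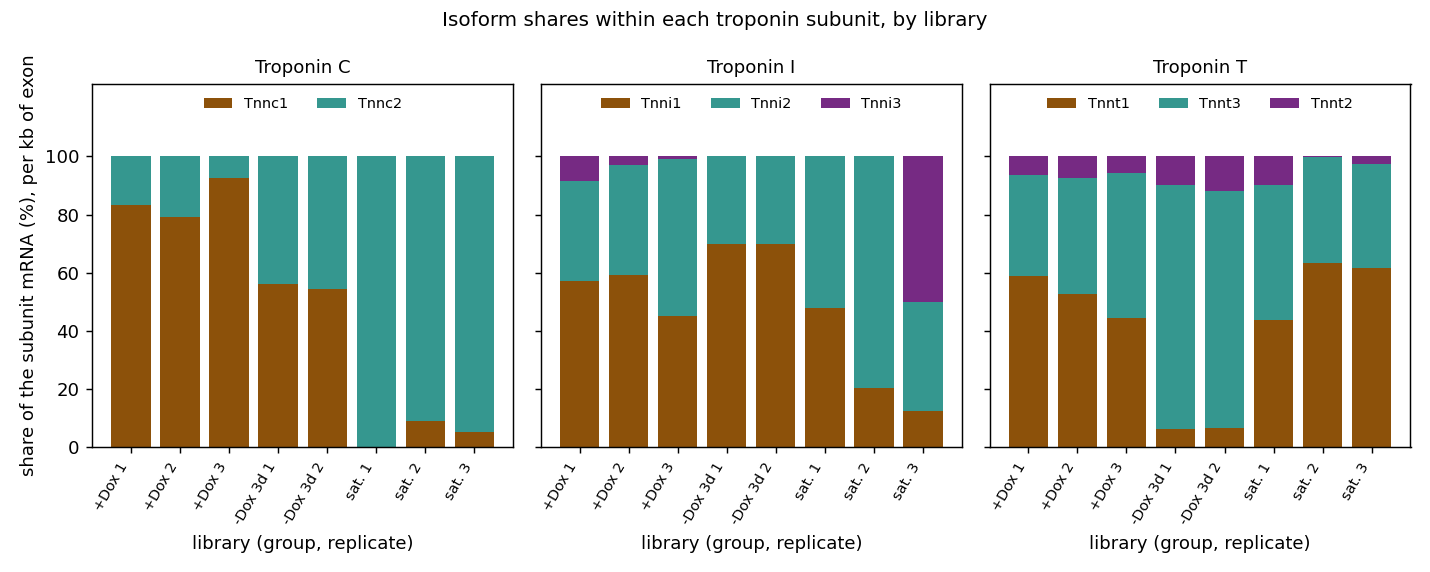
Stacked bars of the isoform shares (percent of the subunit's mRNA per kb of exon) for troponin C, I and T, 1 bar per library, with slow forms (and Tnnc1) in brown, fast forms in teal and cardiac forms in purple. The teal part of troponin C grows from +Dox to -Dox 3d to satellite cells, and troponin T is mostly teal only in the -Dox 3d bars among the 8 shown.

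The 3 fast isoforms together made up 30 to 37.5% of all troponin mRNA per kb in +Dox libraries, 53.3 and 54% in -Dox 3d libraries and 60.5 to 77.2% in satellite libraries. Troponin C mRNA per kb was 1.71 to 1.85 times that of troponin I in +Dox libraries, 4.17 and 4.28 times in -Dox 3d libraries and 4.53 to 6.75 times in satellite libraries. Troponin T was 2.96 to 3.72 times troponin I with Dox, 2.04 and 2.16 times without it and 4.16 to 6.47 times in satellite cells. By this measure the mRNAs of the 3 subunits were not at equal levels in any library, although the complex holds them in equal numbers. The sizes of these ratios rest on the exon lengths used, such as 1708 bases for Tnni1, whose longest transcript has 1150.

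Genes of the same structures were followed through lists. Tpm1 and Tpm3 each belong to more than 1 list. Of 15 thin filament partners, 13 rose after Dox withdrawal and none fell, against 4.63% and 3.01% of all tested genes. The largest fitted rises were those of Xirp1 and Xirp2, actin-binding proteins of the muscle attachment sites. Xirp1 went from 1, 1 and 0 counts to 4955 and 5902 counts (edgeR adjusted p = 9.96e-05), and Xirp2 from 2, 0 and 0 counts to 3438 and 2671 counts (edgeR adjusted p = 0.00785). With so few counts in +Dox libraries the size of such a fold depends on the fit, so counts are given for these genes. Tpm1, a tropomyosin to which troponin T binds, rose by 1.14 ± 0.21 (log2, SE, edgeR adjusted p = 0.00955), and Tpm3, also in the slow-fibre list, was not called (-0.69 ± 0.33, edgeR adjusted p = 0.269). Tpm1 already had 1553, 1665 and 1458 CPM in +Dox libraries, and Tpm3 had 645.5, 628 and 479.5 CPM. Counts per gene do not separate the transcripts of a gene, so these values are not those of a sarcomeric form alone. In satellite cells 7 of the 15 were higher and 3 lower than in +Dox cells, against 23.9% and 18.2% of all tested genes, so that the lower share lies near the background. Xirp1, with 127, 713 and 232 counts in satellite libraries (edgeR adjusted p = 8.58e-05), and the actin nucleator Lmod2, with 238, 162 and 159 counts against 0, 3 and 0 in +Dox libraries (edgeR adjusted p = 7.62e-05), stood at one end. Tpm1 (log2 -3.74 ± 0.21 SE, edgeR adjusted p = 5.86e-06) and Nrap (-6.89 ± 1.19, edgeR adjusted p = 0.00149) stood at the other.

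Of 11 tested fast-fibre genes, 11 rose after Dox withdrawal, against 4.63% of all tested genes. Myh1, a fast myosin heavy chain, went from 0, 2 and 0 counts to 13001 and 16215 counts (edgeR adjusted p = 6.68e-05). Pvalb, the calcium buffer of fast fibres, was at 0 in all 3 +Dox libraries and had 273 and 247 counts in -Dox 3d libraries (edgeR adjusted p = 0.00304), so its rank among the largest fitted folds rests on the zeros. Of 10 tested slow-fibre and cardiac genes, 7 rose and none fell. Myh7, the slow and cardiac myosin heavy chain, went from 0, 1 and 0 counts to 2703 and 4207 counts (edgeR adjusted p = 0.000244), and Myl4, an embryonic and atrial light chain, rose by 12.33 ± 0.97 (log2, SE, edgeR adjusted p = 9.13e-05). Both developmental myosins rose, Myh8 by 10.9 ± 1.31 (edgeR adjusted p = 0.00124) and Myh3 by 9.16 ± 1.20 (edgeR adjusted p = 0.00186). Fast, slow and developmental genes thus rose in the same libraries, as the fast and slow troponins did. Between satellite cells and +Dox cells, 7 of the 11 fast-fibre genes were higher in satellite cells and 2 lower, and 5 of the 10 slow-fibre and cardiac genes were higher and none lower, against a background of 23.9% and 18.2%. Between -Dox 3d and satellite cells, 13 of 15 thin filament partners, 8 of 11 fast-fibre genes and 6 of 10 slow-fibre and cardiac genes were higher in -Dox 3d cells, and 1, 0 and 1 were lower, against 17.2% and 20.4% of all tested genes.

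Of 18 regulators of muscle genes, 8 rose and 1 fell after Dox withdrawal, against 4.63% and 3.01% of all tested genes. Mef2c, which acts with myogenic factors on contractile genes, rose most (log2 8.68 ± 0.59 SE, edgeR adjusted p = 4.3e-05), followed by Myog, and Myf5, a factor of committed precursors, fell by 3.64 ± 0.33 on the log2 scale (edgeR adjusted p = 0.000233). In satellite cells 11 were higher than in +Dox cells and none lower (23.9% and 18.2% of all tested genes), with Myod1 at 6.84 ± 0.46 (edgeR adjusted p = 1.14e-05). Between -Dox 3d and satellite cells 4 were higher and 7 lower, against 17.2% and 20.4% of all tested genes, so that the higher share lies near the background.

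For each troponin, the genes with the most similar pattern over the 8 libraries were named by Pearson r of log2 CPM among 8471 genes, as a description. Myog was the nearest gene for Tnni2 (r = 0.993) and Tnnt3 (r = 0.992), and the third nearest for Tnnt1 (r = 0.992), whose nearest was Smpx (r = 0.996). Tnnc2 was nearest to Trdn (r = 0.993), Dnase1l3 (r = 0.993) and Myh1 (r = 0.987), and Tnni1 to 4921524J17Rik, Fndc5 and Mylpf (r = 0.994, 0.992 and 0.992). Tnnt2 was nearest to Adssl1, Pgam2 and Hspb2 (r = 0.99, 0.987 and 0.985). Tnnc1 was nearest to Tecr, Nsdhl and Psat1 (r = 0.996, 0.985 and 0.984), which are enzymes of lipid, sterol and serine synthesis and not sarcomere genes. The nearest gene to Tnni3, Psap, reached r = 0.905. All these points share the same libraries, and every troponin except Tnni3 has the large step between -Dox 3d and the other groups.

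Chromatin at the start sites was described from peaks that the authors called on merged replicates, so these values have no replicate error and no test. In iPax7 +Dox cells 6 of 8 troponins had an ATAC-seq peak (open chromatin) within 1 kb of an annotated start site, beside 63.2% of 22238 annotated genes, and in -Dox 3d cells the same count of 6 stood beside 65.6%. In satellite cells 5 of 8 had one, beside 58.6%. With a window of 250 bases the counts were 4 in both +Dox and -Dox 3d cells, beside 60 and 61.9%, and 3 in satellite cells, beside 56.3%. In +Dox and -Dox 3d cells Tnnc1 and Tnni2 were counted by peaks whose summits lay more than 1 kb from the start. At 3 days without Dox, when Tnnc2 mRNA stood at 3505 and 3270 CPM, no ATAC peak was called at its start site.

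In myotubes grown from iPax7 cells 7 of 8 genes had a peak, beside 61.8% of genes, and in myotubes of C2C12, a mouse myoblast line, 6 of 8 had one, beside 54.2%. Both myotube sets came from cells in horse serum, whereas the C2C12 myoblasts and, per the paper, the iPax7 precursors were grown in fetal bovine serum. Medium and cell state thus changed together, and the part of the medium in the myotube peaks was not tested. In parental C2C12 myoblasts none of the 8 had a peak, beside 45.1%; that peak set was the smallest, with 42700 peaks against 76047 to 172103 in the other sets. At Tnnc1 the strongest peak was 2.75-fold over background in +Dox cells, 3.61-fold at 3 days without Dox, 22.5-fold in iPax7 myotubes and 40.2-fold in C2C12 myotubes, and none was called in satellite cells. The iPax7 peaks lay in an intron about 1 kb after the start, at chr14:32022403-32022738 in +Dox cells, and the myotubes added a peak at the start itself (chr14:32021282-32021709 in iPax7 myotubes, 6.37-fold). Tnnc2 had peaks in myotubes only among the 10 sets: 8.09-fold in an intron at chr2:164604210-164604861 and 7.11-fold upstream of the start at chr2:164605139-164605613 in iPax7 myotubes, and 9.63-fold in C2C12 myotubes.

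At genes with several annotated starts the strongest peak did not always lie at the same one. At Tnni1 the strongest peak in satellite and iPax7 cells lay at the most upstream start, chr1:137679366-137679693 in +Dox cells (3.7-fold) and chr1:137679292-137679759 at 3 days without Dox (8.79-fold). A weaker intron peak lay downstream in +Dox cells (3.27-fold at chr1:137697165-137697522). In iPax7 myotubes no peak was called at the upstream start, and the peaks lay downstream, at chr1:137695035-137696242, which spans the RefSeq start (8.82-fold), and at chr1:137696969-137697950 (12.7-fold). At Tnnt1 the strongest peak in +Dox cells, 6.46-fold at chr7:4468013-4468463, lay just upstream of the gene. There the fold was 2.57 at 12 h without Dox, no peak was called at 24 h, and it was 3.05 at 3 days and 22.3 in iPax7 myotubes. In satellite cells the peaks of Tnnt1 lay within the gene, with 4.88-fold at chr7:4466013-4466328. The peak counted for Tnni3 lay upstream of an alternative start (6.25-fold in satellite cells) and not at its RefSeq start, where no set had one.

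Tnnt2 had no peak at the GENCODE M1 start in any set, but that start lies downstream of the RefSeq start. At the RefSeq start, placed in NCBIM37 by exact sequence match and added after the data were seen, its peak was 3.1-fold in +Dox cells, 2.96-fold at 3 days without Dox, 17.4-fold in iPax7 myotubes and 17.9-fold in C2C12 myotubes, and none was called in satellite cells. Peak fold depends on the depth of each set as well as on opening, which was not tested.

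**Figure D4:**
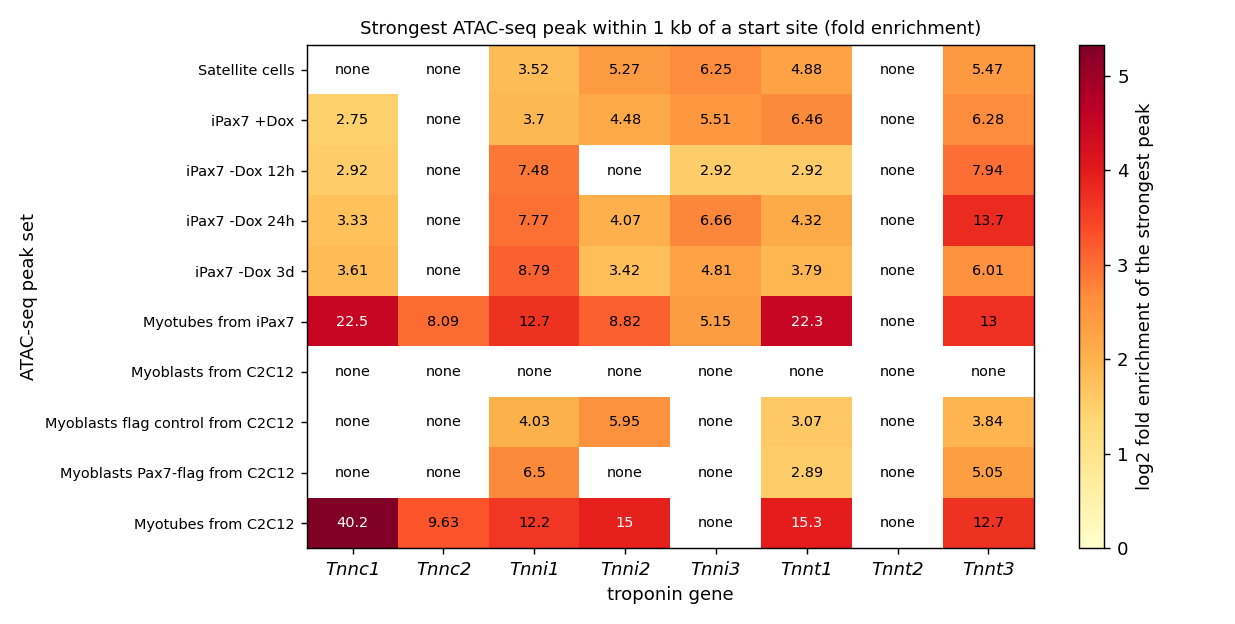
Fold enrichment of the strongest ATAC-seq peak within 1 kb of an annotated start of each troponin gene (columns) in the 10 peak sets (rows), coloured on a log2 scale, with "none" where no peak was called. The myotube rows hold the largest values for Tnnc1 (22.5 and 40.2), and the row of parental C2C12 myoblasts is empty.

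Histone marks were compared in iPax7 cells in the same way. H3K27Ac, a mark of active elements, was present at 5 of 8 troponins with Dox (48% of all genes) and at 6 without it (45.2%), the added gene being Tnnc2. H3K4me1 went from 5 (61.6%) to 8 (64.8%) and H3K4me3, a mark of active promoters, from 5 (60.4%) to 8 (66%), with Tnnc2, Tnni3 and Tnnt2 as the added genes for both. At its RefSeq start, however, Tnnt2 already held H3K4me1 and H3K4me3 peaks with Dox, and H3K27Ac was called there without Dox but not with it. The H3K4me3 set of -Dox 3d cells covered 155 Mb against 63.6 Mb with Dox, so that it marked more of the genome. H3K27me3, a repressive mark, was at none of the 8 with or without Dox, beside 21.8 and 19.9% of all genes.

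No Pax7 peak lay within 1 kb of a troponin start, and 1.56% of all genes had one. The nearest of the 2455 Pax7 peaks was 157 kb from Tnni2, 214 kb from Tnnt3, 257 kb from Tnnc1, 299 kb from Tnnt2, 335 kb from Tnni1, 784 kb from Tnnc2 and 2209566 bases from Tnnt1 and 2201719 bases from Tnni3. The median distance over 22208 genes was 401 kb.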

How the data were processed

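RNA-seq counts per gene symbol were deposited by the authors for 8 libraries, made with HTSeq 0.6 after TopHat2 2.0 alignment per the labels' tool list (build mm9). The annotation and the strand setting are not given in the sources used here. Rows naming no gene (9.19 to 9.93% of reads in iPax7 and 25.1 to 32.4% in satellite libraries) were left out. Replicate numbers come from the file names. Counts were filtered with filterByExpr, scaled by TMM and tested over all 8 libraries with the quasi-likelihood test of edgeR 4.0.16, with Benjamini-Hochberg adjustment over 14836 genes, after a check on simulated data; DESeq2 1.42.0 was an alternative. Each SE was derived from the fold change and its F statistic. CPM used TMM-scaled library sizes, and exon lengths came from protein-coding GENCODE M1 transcripts. The deposited ATAC-seq peaks give fold enrichment over background, as a ratio, and a −log10 q-value from MACS2 2.0.10 on merged replicates; ChIP-seq peaks are intervals only. Inputs, the ChIP-seq of iPax7 cells in 2% horse serum and the Pax7 ChIP-seq without Dox were not analysed here. Members and lists were chosen with earlier results of these data known. Named genes were the 8 troponins, the 2 largest and 2 smallest changes in a list, the 3 most similar genes by Pearson r for each troponin (among genes averaging at least 10 CPM), and Pax7 and Myog as checks of the groups. Other genes named, as examples of markers, were chosen after their values were seen.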

Additional observations from a re-analysis of the deposited data

How the results depend on the processing

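Of 8 troponins, 7 were called higher in both comparisons with -Dox 3d cells under DESeq2, RLE scaling, no filter on low counts, fits of 2 groups and with each library left out. For satellite cells minus +Dox cells, the count called lower was 2, but 1 in the fit of the 2 groups alone and 1 with a replicate block in that fit, since Tnni1 was lost (log2 -1.90 and -2.44, edgeR adjusted p = 0.0751 and 0.072); with 1 library left out it ran from 1 to 3. Replicates with the same number did not deviate together over all tested genes (r from -0.0395 to 0.027). With so few libraries per group this cannot show whether the numbers pair the samples, which is not known. The block changed no other troponin call. It moved the number of all genes called from 1950 to 2608 for Dox withdrawal, against 1134 in the fit of all libraries and 2010 with DESeq2; it was 508 and 488 without -Dox 3d replicates 1 and 2, and 674 and 630 without +Dox replicates 1 and 2. For -Dox 3d minus satellite cells it was 5579, and 3204 and 3382 without -Dox 3d replicates 1 and 2, a lone -Dox 3d library being assumed to vary like the other groups. Tnni3, never called, changed sign: with 1 library left out, its log2 difference ran from -7.40 (without -Dox 3d replicate 1) to 0.44 (without -Dox 3d replicate 2) for Dox withdrawal, where it was 0.19 without +Dox replicate 1. It ran from -7.47 (without satellite replicate 3) to 1.77 (without +Dox replicate 1) for satellite minus +Dox cells, and from -8.46 (without -Dox 3d replicate 1) to 6.89 (without satellite replicate 3) for -Dox 3d minus satellite cells. With the replicate block the last 2 were -3.80 and 6.35. With 1 library left out, the Tnnc2 share gap between the highest and lowest group ran from 76.4 to 83.1 points and its adjusted p (exact permutation) from 0.0222 to 0.1. In 7 of these 8 fits it missed 0.05, although each raw p was the smallest the design allows (0.00952 or 0.0143). Without satellite replicate 1, adjusted p values (exact permutation) fell to 0.0222 for the Tnni1 share, 0.0333 for Tnnt1 and 0.0222 for Tnnt2, and the share gaps ran from 35.6 to 53.4, 46.1 to 55.9 and 4.61 to 9.46 points over the left-out libraries. Raw counts, longest-transcript lengths and all gene models (the last chosen after the data were seen) moved no share test across 0.05. Each changed the leading isoform in some libraries, as given above. Among the lists, for satellite minus +Dox cells, slow-fibre and cardiac genes called higher went from 5 to 3 and developmental myosins called lower from 1 to 0 in the fit of the 2 groups, and regulators called lower from 0 to 1 with DESeq2. Thin filament partners and fast-fibre genes called higher each went from 7 to 5 in the fit of the 2 groups. Troponins with an ATAC peak in satellite cells went from 5 to 3 with a window of 250 bases, to 3 with a −log10 q of at least 10 and to 2 at RefSeq starts (chosen after the data were seen). With at least 100 bases covered the count was 4. In both +Dox and -Dox 3d cells it went from 6 to 4 with the 250-base window and with at least 100 bases covered, and to 5 at RefSeq starts. With a −log10 q of at least 10 it was 5 in +Dox and 4 in -Dox 3d cells. The stricter setting could not be run for ChIP-seq peaks, which carry no score. The cause of these changes was not tested. The median of all genes was 0.174 with TMM and 0.236 with RLE for satellite minus +Dox cells, and -0.231 and -0.253 for -Dox 3d minus satellite cells. Tnnc1, Tnni3 and Tnnt2 in satellite cells rest on few counts, and -Dox 3d has 2 libraries.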

Other observations

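Genes next to the troponin pairs, chosen after their values were seen, did not all share the troponin pattern. Lsp1, a leukocyte-associated actin-binding protein encoded between Tnni2 and Tnnt3, had 4.81, 9.43 and 1.71 CPM in +Dox libraries, 57 and 61.6 CPM in -Dox 3d libraries and 212, 147 and 160 CPM in satellite libraries. It rose by 3.48 ± 0.57 (log2, SE, edgeR adjusted p = 0.00553) after Dox withdrawal, and it was 5.02 ± 0.58 higher in satellite than in +Dox cells (log2, SE, edgeR adjusted p = 0.000186), where neither flanking troponin was called. The blood marker Ptprc had 8.30, 7.00 and 12.4 CPM in satellite libraries and 0 in every iPax7 library; its part in the Lsp1 values was not tested. Lad1, next to Tnni1 and Tnnt2, had at most 26 counts in a library, and Dnaaf3, next to Tnnt1 and Tnni3, had at most 108 counts.

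In C2C12 myoblasts with a flag control or with Pax7-flag, H3K27Ac was called at 6 of 8 troponins in both (53.7 and 54.8% of all genes), H3K4me1 at 7 in both (49.8 and 63.6%) and H3K27me3 at none (19 and 21.5%). H3K4me3 was called at 1 gene in each (45.2 and 38%), but the gene differed: Tnnc1 in the flag control and Tnni1 with Pax7-flag. ATAC peaks were at 4 and 3 of the 8 genes (55.8 and 56.8%). With a window of 250 bases the H3K27Ac counts were 3 and 4, the ATAC counts 3 and 2, and the H3K4me3 count 0 in the flag control. With a −log10 q of at least 10 the ATAC counts were 1 and 2, and at RefSeq starts they were 2 and 1, with H3K4me3 at 0 in Pax7-flag and H3K27Ac at 4 in the flag control. These are single merged peak sets with no replicate error.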
